A study of Mus musculus with 9 samples.

Results

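The data described here are the open chromatin peaks of 10 genes used as markers of astrocytes: Gja1, Gjb6, Slc1a2, Slc1a3, Aqp4, Aldoc, Aldh1l1, Fgfr3, Gfap and S100b. Every peak annotated to 1 of these genes was taken, together with any peak lying over one of their transcription start sites (TSS), which added no further peak. The set held 169 of the 253457 peaks in the 9 lists, and the 10 genes are among 20035 genes named in at least 1 list. The genes were chosen by the presence of promoter peaks, which for some of them had been seen mainly in old lists. Presence in old against young lists is therefore given below as a description without a test.

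Nuclei of purified brain endothelial cells (ECs) from mice were profiled by Omni-ATAC-seq, in which a transposase cuts accessible DNA and places with many cuts are called as peaks. The labels give 2 genotypes, CdH5CRE and ECK4KO, and 2 age groups, young and old, with no exact ages. The young mice gave 3 EC-K4KO and 2 WT Cre libraries and the old mice 2 of each. According to the study's methods, EC-K4KO mice carried floxed Klf4 alleles, a gene for a zinc finger transcription factor, and a tamoxifen-inducible Cre recombinase driven by the endothelial Cdh5 promoter. WT Cre controls carried the same Cre and received tamoxifen too, so all groups share the driver and the drug. The Cdh5 promoter limits the deletion to endothelial cells by design, so astrocytes keep Klf4. The labels do not say how many mice stand behind a library or that replicates came from separate mice, so p-values measure only the spread between these libraries.

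Astrocytes are glial cells whose endfeet wrap brain capillaries. They take up glutamate and potassium, move water through endfoot channels and are coupled to each other by gap junctions. Some of the 10 genes are used outside astrocytes as well, since connexin 43 (Gja1) is also made by vascular cells and the FGF receptor Fgfr3 by several other tissues, whereas Gfap and Aqp4 serve as more defining markers of astrocytes among brain cells. Chromatin can be open at a promoter without transcription, and a peak says only that more cuts fell there than in the surroundings.

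Sequences are shown for the places where peaks of these genes recurred, since they carry most of the results below. Each is a stretch of 200 bases of GRCm38, read 5′ to 3′ on the strand of its gene. Capitals mark matches, on either strand, to 1 of 6 short motifs: KLF (GGGNGTG), ETS (CCGGAAG), AP-1 (TGANTCA), SOX (ACAATGG), NFI (TTGGCA) and STAT (TCCNGGA). The first 2 stretches end at a TSS of Gja1 that lies inside the gene (chr10:56378888-56379087, plus strand) and at the first TSS of Fgfr3 (chr5:33721524-33721723, plus strand). The next 4 are centres of intergenic regions, 223 kb (chr10:56599968-56600167) and 508 kb (chr10:56885096-56885295) downstream of the Gja1 TSS and 51.1 kb (chr15:8761794-8761993, minus strand) and 23.1 kb (chr15:8733817-8734016, minus strand) upstream of the Slc1a3 TSS. The last is coding sequence of Gfap, 4.0 kb inside the gene (chr11:102893096-102893295, minus strand).
Gja1 internal TSS: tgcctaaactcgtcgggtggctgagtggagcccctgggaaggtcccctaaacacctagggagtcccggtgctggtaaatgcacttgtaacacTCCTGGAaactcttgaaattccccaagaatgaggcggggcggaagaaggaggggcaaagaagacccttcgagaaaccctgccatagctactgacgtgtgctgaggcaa
Fgfr3 TSS: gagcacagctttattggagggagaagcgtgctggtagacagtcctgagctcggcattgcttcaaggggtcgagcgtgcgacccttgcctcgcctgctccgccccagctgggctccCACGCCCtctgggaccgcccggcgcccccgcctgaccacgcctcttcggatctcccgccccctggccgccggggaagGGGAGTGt
Gja1 223 kb downstream: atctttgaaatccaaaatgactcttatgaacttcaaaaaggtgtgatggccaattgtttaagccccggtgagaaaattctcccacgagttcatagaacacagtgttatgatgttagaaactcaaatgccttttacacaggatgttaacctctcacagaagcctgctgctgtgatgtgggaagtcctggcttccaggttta
Gja1 508 kb downstream: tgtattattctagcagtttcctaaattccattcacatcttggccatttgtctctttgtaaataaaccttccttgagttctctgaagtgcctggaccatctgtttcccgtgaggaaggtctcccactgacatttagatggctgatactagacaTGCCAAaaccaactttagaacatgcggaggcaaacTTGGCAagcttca
Slc1a3 51.1 kb upstream: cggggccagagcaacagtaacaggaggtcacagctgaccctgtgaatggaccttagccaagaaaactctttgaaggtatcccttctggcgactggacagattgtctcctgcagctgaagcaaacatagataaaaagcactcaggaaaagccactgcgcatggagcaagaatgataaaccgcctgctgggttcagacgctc
Slc1a3 23.1 kb upstream: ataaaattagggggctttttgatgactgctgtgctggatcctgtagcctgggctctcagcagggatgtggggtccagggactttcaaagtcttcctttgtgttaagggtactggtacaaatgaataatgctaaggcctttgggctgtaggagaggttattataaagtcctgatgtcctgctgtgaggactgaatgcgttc
Gfap 4.0 kb inside: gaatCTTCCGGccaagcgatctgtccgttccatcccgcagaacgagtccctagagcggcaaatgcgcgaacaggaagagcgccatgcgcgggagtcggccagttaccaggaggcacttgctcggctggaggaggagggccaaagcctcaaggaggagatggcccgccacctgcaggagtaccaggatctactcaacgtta
The Fgfr3 stretch held 2 KLF matches, the Gja1 internal TSS 1 STAT match, the Gja1 region at 508 kb 2 NFI matches and the Gfap stretch 1 ETS match. The other 3 held none. Of the central 200 bases of all 92495 merged regions, 15.1% held a KLF match, 8.70% a STAT match, 12% an NFI match and 3.04% an ETS match. A match is a run of letters and not a shown binding site.

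The lists differ in length, and every count below stands beside that. They held 6157 and 9598 peaks in young WT Cre, 23848, 25309 and 27992 in young EC-K4KO, 43893 and 32555 in old WT Cre, and 45026 and 39079 in old EC-K4KO. The share of 21911 protein-coding genes with a peak over a TSS ran from 16.6% in young WT Cre 1 to 51.0% in old EC-K4KO 1. Read counts were not analysed here and the depth of each library is unknown. Library names begin with 1 of 2 prefixes, 1 for all 5 young and 1 for all 4 old libraries, so what the prefix stands for and age cannot be told apart. A peak over the Klf4 TSS was present in all 9 lists, at rank percentiles of 41.7 to 96.2, and does not check the deletion, because the lists hold no coverage of the floxed exons. A rank percentile orders the peaks of 1 list by the authors' −log10 p, with 100 for the strongest peak of the list, and 0 is entered where no peak covers the TSS. At the same rank, a peak has a higher percentile in a longer list.

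The label of the cells was checked against markers. Of 15 endothelial genes, 7 and 8 had a peak over a TSS in young WT Cre, 10, 11 and 13 in young EC-K4KO, and 13 in each of the 4 old lists. The tight junction gene Cldn5 had one in every list, at percentiles of 85.4 to 91.2. Of the 10 astrocyte marker genes, 6 had such a peak in at least 1 list, where the share of all protein-coding genes was 54.5%. Gja1 had one in 7 lists, Fgfr3 in 6, Slc1a3 and Aldoc in 2 each and Gjb6 and Slc1a2 in 1 each, while Gfap, Aqp4, Aldh1l1 and S100b had none in any list. By the same count, 8 of 20 further astrocyte genes, 5 of 10 pericyte and mural genes, 5 of 10 neuronal genes, 3 of 10 oligodendrocyte genes and 0 of 10 microglial genes had a TSS peak in at least 1 list. In bulk nuclei, fewer cells of a type and less open chromatin per cell cannot be told apart.

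**Figure D1:**
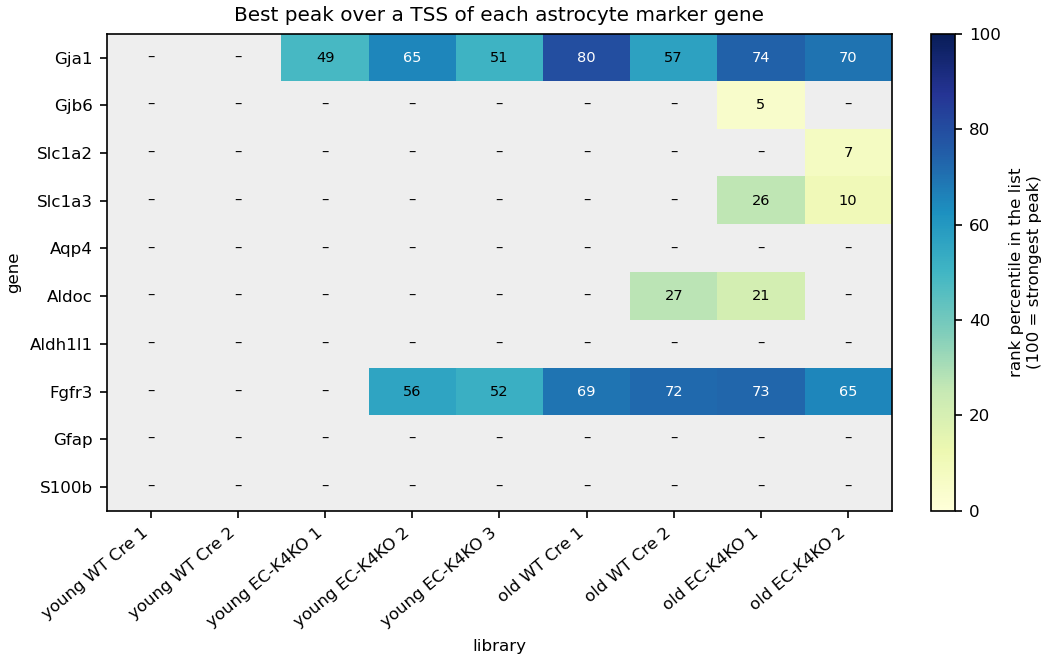
Rank percentile of the best peak over a TSS of each of the 10 astrocyte marker genes (rows) in each of the 9 libraries (columns), where 100 is the strongest peak of a list and a dash means no peak over a TSS. Gja1 was present in 7 lists and Fgfr3 in 6, Slc1a3, Aldoc, Gjb6 and Slc1a2 in 1 or 2 old lists each, and Gfap, Aqp4, Aldh1l1 and S100b in none.

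TSS peaks were few and fell into 3 patterns. The number of the 10 genes with a peak over a TSS was 0 in both young WT Cre lists, 1, 2 and 2 in young EC-K4KO, 2 and 3 in old WT Cre, and 5 and 4 in old EC-K4KO. Gja1 and Fgfr3 were present in all 4 old lists and in neither young WT Cre list, as were 19% of protein-coding genes. Slc1a3, Aldoc, Gjb6 and Slc1a2 had a TSS peak in at least 1 old list and no young list, against 6.2% of protein-coding genes. No gene of the 10 had one in all 4 old lists and no young list, where the share was 1.26%. These counts are the contrast that chose the genes, so nothing is read from them. Among the 6157 strongest peaks of each list, the length of the shortest list, none of the 10 genes had a TSS peak in any of the 9 libraries.

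Genotype within age was not part of the choice and was tested gene by gene with an exact permutation test over the libraries. Gja1 encodes connexin 43, the main gap junction protein of astrocytes. In every list that had one, its best TSS peak lay over the TSS inside the gene and was classed as intron by the authors. This TSS peak was absent from both young WT Cre lists. The percentile was 48.6, 64.9 and 51.1 in young EC-K4KO, 79.6 and 56.9 in old WT Cre, and 74.2 and 69.7 in old EC-K4KO. The young genotypes did not overlap, whereas the old genotypes did. In young EC-K4KO the peak was number 12262, 8879 and 13687 in strength, and the young WT Cre lists held 6157 and 9598 peaks. A TSS peak in all 3 young EC-K4KO lists and neither young WT Cre list was found for Gja1 alone among the 10 genes and for 9.76% of protein-coding genes. Averaged over both ages, EC-K4KO exceeded WT Cre by 29.3 points for Gja1 (two-sided exact permutation test, p = 0.05, Benjamini-Hochberg adjusted p = 0.135 over 14573 genes). The difference between the old and the young genotype effect was −51.2 points (exact permutation p = 0.1, adjusted p = 0.222). Ordered only among genes with a TSS peak, the genotype difference of Gja1 was 9.62 points (exact permutation p = 0.167, adjusted p = 0.332). The authors' promoter-TSS class held only its upstream TSS peak of the old EC-K4KO lists. By that class the difference was 23.3 points (exact permutation p = 0.333, adjusted p = 0.580).

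Fgfr3, a receptor tyrosine kinase for fibroblast growth factors, has its TSS within a region where the gene G630022F23Rik is annotated as well (chr5:33721480-33722207). Its promoter peak was absent from both young WT Cre lists and from young EC-K4KO 1. It ranked at percentiles of 56.2 and 52.2 in the other 2 young EC-K4KO lists, 69.2 and 72.1 in old WT Cre, and 72.8 and 64.9 in old EC-K4KO. The old genotypes overlapped, and the difference of 17.2 points between genotypes within age did not pass the test (exact permutation p = 0.3, adjusted p = 0.430). Without young EC-K4KO 1 the difference was 26.2 points (exact permutation p = 0.222, adjusted p = 0.365). It was 12.1 points without young EC-K4KO 2 and 13.1 without young EC-K4KO 3 (exact permutation p = 0.667 each). None of these runs allows a p under 0.05. The fold enrichment of this peak over local background, as the authors' peak caller gave it, was 4.93 and 4.64 in young EC-K4KO, 4.28 and 7.04 in old WT Cre, and 7.70 and 6.49 in old EC-K4KO.

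The remaining TSS peaks were weak. Slc1a3, the glutamate transporter GLAST, had a TSS peak only in both old EC-K4KO lists, at percentiles of 26.4 and 10.2 and folds of 3.66 and 3.46 (exact permutation p = 0.333, adjusted p = 0.451). A peak in young EC-K4KO 3, at a percentile of 28.3, lay in the same region between the annotated starts and covered neither. Aldoc, the brain form of the glycolytic enzyme aldolase, had one in old WT Cre 2 at 27.3 and in old EC-K4KO 1 at 21, so the genotypes overlapped. Gjb6, which encodes connexin 30, had one in old EC-K4KO 1 alone, at a percentile of 4.63. Slc1a2, the major glutamate transporter GLT-1, had one in old EC-K4KO 2 alone, at 7.19, over a TSS that the authors' annotation places 47.7 kb upstream of the start it used. For Aldoc, Gjb6 and Slc1a2 the exact permutation p was 1.

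No gene of the 14573 tested passed the adjusted threshold of 0.05 in this exact permutation test, for the genotype difference (0%) or for its interaction with age (0%). The smallest p that 60 arrangements of the labels can give is 0.0167, so a gene can pass only if a large share of all genes reach that p. At an unadjusted p under 0.05 the test marked 3678 genes (25.2%) for genotype and 1239 (8.5%) for the interaction, and none of the 6 marker genes with a TSS peak was among either set.

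The authors' annotation links each peak to its nearest gene, and by that measure the 10 genes had 1 and 4 peaks in young WT Cre, 9, 13 and 16 in young EC-K4KO, 26 and 22 in old WT Cre, and 41 and 37 in old EC-K4KO. Per 10000 peaks of the list this was 2.90 ± 1.80 (SD, n = 2) in young WT Cre, 4.88 ± 0.997 (SD, n = 3) in young EC-K4KO, 6.34 ± 0.590 (SD, n = 2) in old WT Cre and 9.29 ± 0.256 (SD, n = 2) in old EC-K4KO. Both old EC-K4KO lists lay above both old WT Cre lists on this scale, at 9.11 and 9.47 against 5.92 and 6.76, while the young genotypes overlapped. Gja1 and Slc1a3 supplied 113 of the 169 peaks (66.9%). Their joint number was 3.65 and 4.30 per 10000 peaks in old WT Cre and 5.55 and 7.42 in old EC-K4KO, and the groups did not overlap. The other 8 genes gave 2.28 and 2.46 in old WT Cre and 3.55 and 2.05 in old EC-K4KO, where they overlapped. This division of the genes was made after their values were seen. How many of all named genes keep the old genotypes apart per 10000 peaks was not counted. Nothing is read from such separation, here or for single genes below. In the 6157 strongest peaks of each list, the 10 genes had 1 and 0 peaks in young WT Cre, 1, 0 and 0 in young EC-K4KO, 1 and 2 in old WT Cre, and 2 and 2 in old EC-K4KO.

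**Figure D2:**
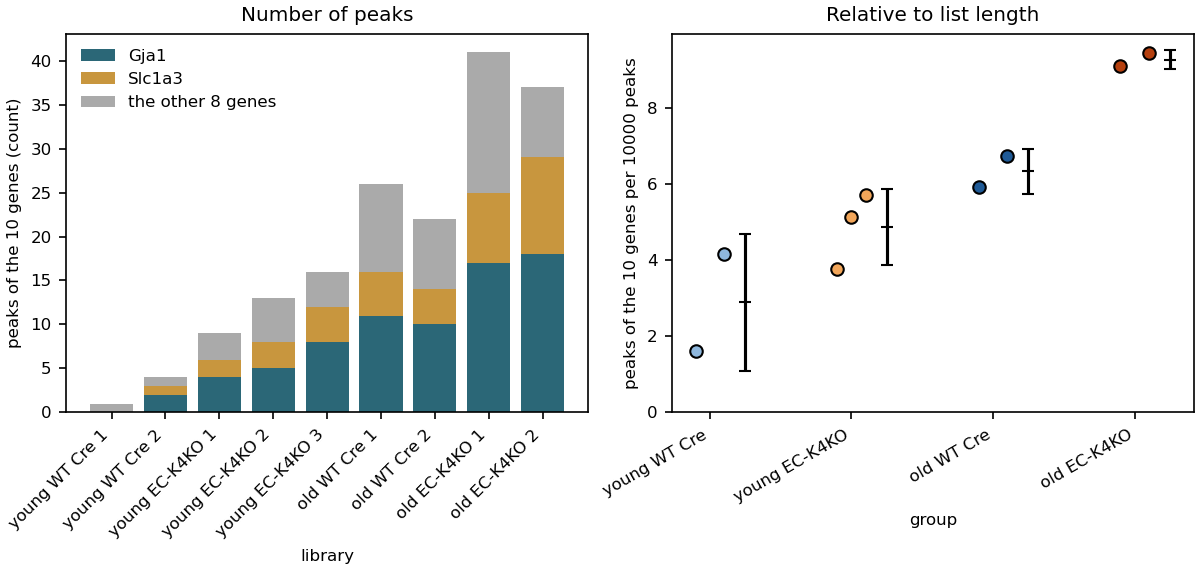
Left, the number of peaks annotated to Gja1, to Slc1a3 and to the other 8 genes in each library, stacked from 0. Right, all peaks of the 10 genes per 10000 peaks of the list, with 1 point per library and the mean and SD of each group beside the points. Both old EC-K4KO lists stood highest, at 9.11 and 9.47 per 10000 peaks.

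The values of other cell types moved in part with these counts. Of 10 pericyte and mural genes, a TSS peak was found for 0 in each of the 5 young lists, for 0 and 2 in old WT Cre and for 4 and 2 in old EC-K4KO. These were Myh11, Kcnj8, Acta2, Cspg4 and Pdgfrb, with Pdgfrb, Cspg4 and Acta2 in old EC-K4KO 1 alone. Peaks named for those 10 genes numbered 0 to 1.62 per 10000 in the young lists, 0.911 and 4.30 in old WT Cre and 4.22 and 3.33 in old EC-K4KO. The old genotypes overlapped there. Of 10 neuronal genes, 0 and 0 had a TSS peak in young WT Cre, 1, 1 and 0 in young EC-K4KO, 1 and 1 in old WT Cre, and 3 and 3 in old EC-K4KO. Of 10 genes of the oligodendrocyte lineage, 0 to 3 had one in any list. The part of pericytes, neurons or oligodendrocytes in the counts of the astrocyte marker genes was not tested.

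Further astrocyte genes were counted in the same way. Of 20 such genes, 1 and 2 had a TSS peak in young WT Cre, 3, 4 and 6 in young EC-K4KO, 5 and 7 in old WT Cre, and 7 in each old EC-K4KO list. Peaks named for them numbered 6.15 and 7.37 per 10000 in old WT Cre and 7.33 and 7.16 in old EC-K4KO, which overlapped. The 8 with a TSS peak in any list were Sox9, Glul, Slc4a4, Atp1b2, Ndrg2, Cbs, Ppp1r3c and Gpc5. Glul, the enzyme that turns glutamate into glutamine and is made by many cell types, was present in all 9 lists at percentiles of 84.9 to 96.3. Of 10 genes linked to reactive astrocytes, 4 had a TSS peak in any list, namely Vim, S1pr3, Timp1 and Cxcl10. Vim, an intermediate filament gene that ECs also use, was present in all 9. Across both lists together with the markers, no gene passed the adjusted threshold for genotype.

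**Figure D3:**
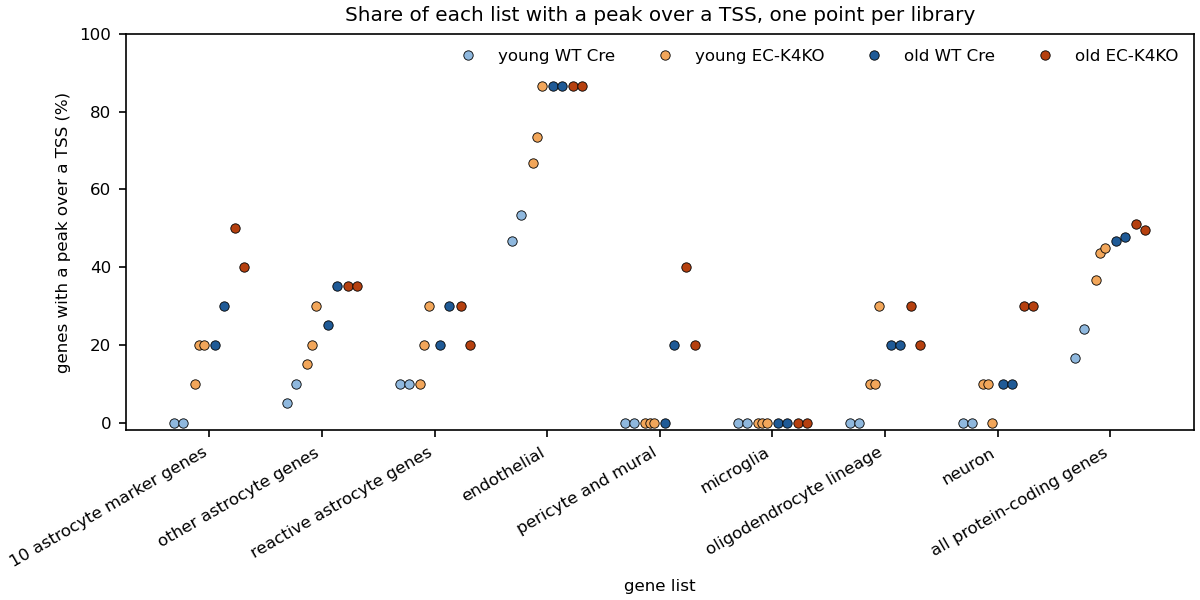
Percentage of the genes of each marker list with a peak over a TSS (y axis) for the 8 lists and for all protein-coding genes (x axis), with 1 point per library coloured by group. Endothelial genes reached 86.7% in old lists, the 10 astrocyte marker genes stayed at or below 50% and microglial genes stood at 0% throughout.

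Most peaks of the 10 genes lay far from their promoters. Intergenic peaks made up 118 of the 169 (69.8%, against 34.1% of all peaks), introns 31 (18.3% against 33.2%), exons 8 (4.73% against 6.87%) and the authors' promoter-TSS class 12 (7.10% against 24.5%). The median distance from the TSS was 51.1 kb, and 75.1% of the peaks lay over 10 kb away, against 55.2% of all peaks. Gja1 and Slc1a3 supplied most of the intergenic peaks. Among the peaks of the other 8 genes, intergenic peaks were a minority. Their share over 10 kb away was close to the 55.2% of all peaks. Merging peaks of all libraries that share a base gave 70 regions for the 10 genes among 92495 in all. Of the 70, 36 (51.4%) were found in 1 list, where the share of all regions was 57.3%. In 7 or more lists were 6 (8.57%), against 13.2% of all regions. All 4 old lists and no young list shared 7 of them (10%), against 3.81% of all regions, which is again the contrast that chose the genes.

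**Figure D4:**
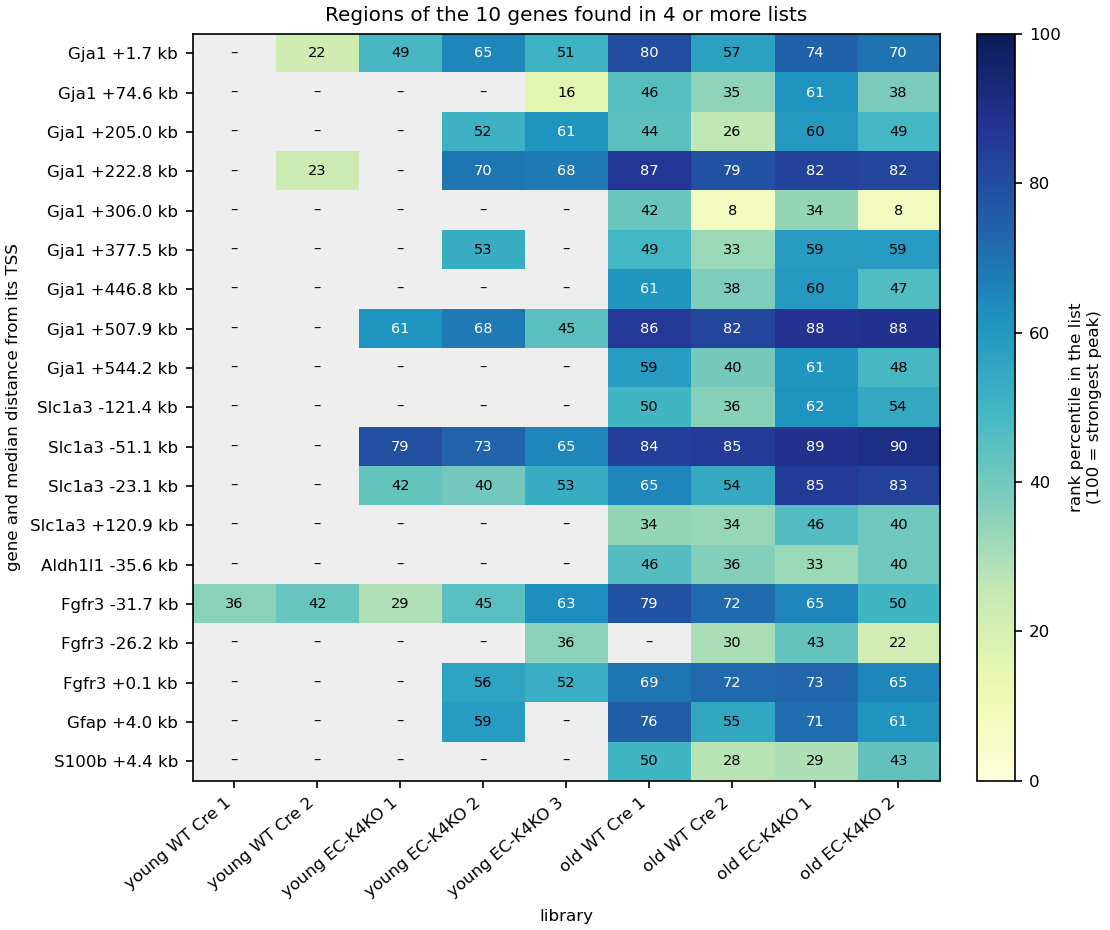
Rank percentile of the peak in each of the 19 regions of the 10 genes found in 4 or more lists (rows, named by gene and median distance in kb from its TSS) in each of the 9 libraries (columns). A dash means no peak. Of the 19 regions, 7 ranked higher in both old EC-K4KO lists than in both old WT Cre lists, 1 ranked lower and 11 overlapped.

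Gja1 had 25 regions, the most of the 10 genes, spread from 63.0 kb upstream to 544 kb downstream of its TSS, and 75 peaks. No peak was annotated to Gja1 in young WT Cre 1 and 2 were in young WT Cre 2. There were 4, 5 and 8 in young EC-K4KO, 11 and 10 in old WT Cre, and 17 and 18 in old EC-K4KO, so the genotypes overlapped at neither age in these raw counts. Per 10000 peaks of the list, the young genotypes did overlap, with 0 and 2.08 in WT Cre and 1.68, 1.98 and 2.86 in EC-K4KO, while old WT Cre stood at 2.51 and 3.07 and old EC-K4KO at 3.78 and 4.61. The difference within age was 5.83 peaks (two-sided exact permutation test, p = 0.0167, adjusted p = 0.543 over 20035 genes). That p is the smallest the design allows, and 1024 genes (5.11%) were under 0.05 unadjusted while none passed after adjustment (0%). Per 10000 peaks the difference was 1.27 (exact permutation p = 0.0833, adjusted p = 0.381). On that scale 2524 genes (12.6%) were under 0.05 unadjusted and none passed (0%), in a test added after seeing the data.

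The 508 kb region of Gja1 printed above was among the highest in rank for this gene (chr10:56884620-56885507, intergenic). It was absent from both young WT Cre lists, and its percentile was 61.2, 68.1 and 44.6 in young EC-K4KO, 85.8 and 82.1 in old WT Cre, and 87.5 and 88.4 in old EC-K4KO. EC-K4KO ranked above WT Cre without overlap at both ages. The old genotypes differed by 3.97 points and the young by 58.0, where 0 is entered for the absent WT Cre peak. The mean was 31.0 points (exact permutation p = 0.0167, adjusted p = 0.556 over 92495 regions, where none passed). The young EC-K4KO peaks were number 9247, 8087 and 15496 in strength, and the young WT Cre lists held 6157 and 9598 peaks. The fold enrichment of this region ran from 3.65 to 11.0.

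The 223 kb region of Gja1 (chr10:56599212-56600291) was present in 7 lists. Its percentile was 23.2 in young WT Cre 2, 69.5 and 68.0 in young EC-K4KO 2 and 3, 86.6 and 78.5 in old WT Cre, and 82.4 in both old EC-K4KO lists, so the genotypes overlapped at both ages. The region around the internal Gja1 TSS (chr10:56378438-56379319, intron) was in 8 lists, including a weak peak at a percentile of 22.3 in young WT Cre 2 that stopped short of the TSS. The genotype difference there was 23.7 points (exact permutation p = 0.0667, adjusted p = 0.718). The upstream TSS of Gja1 had a peak in the old EC-K4KO lists alone (chr10:56377192-56377458), at percentiles of 55.3 and 37.9 and folds of 3.89 and 3.28.

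**Figure D5:**
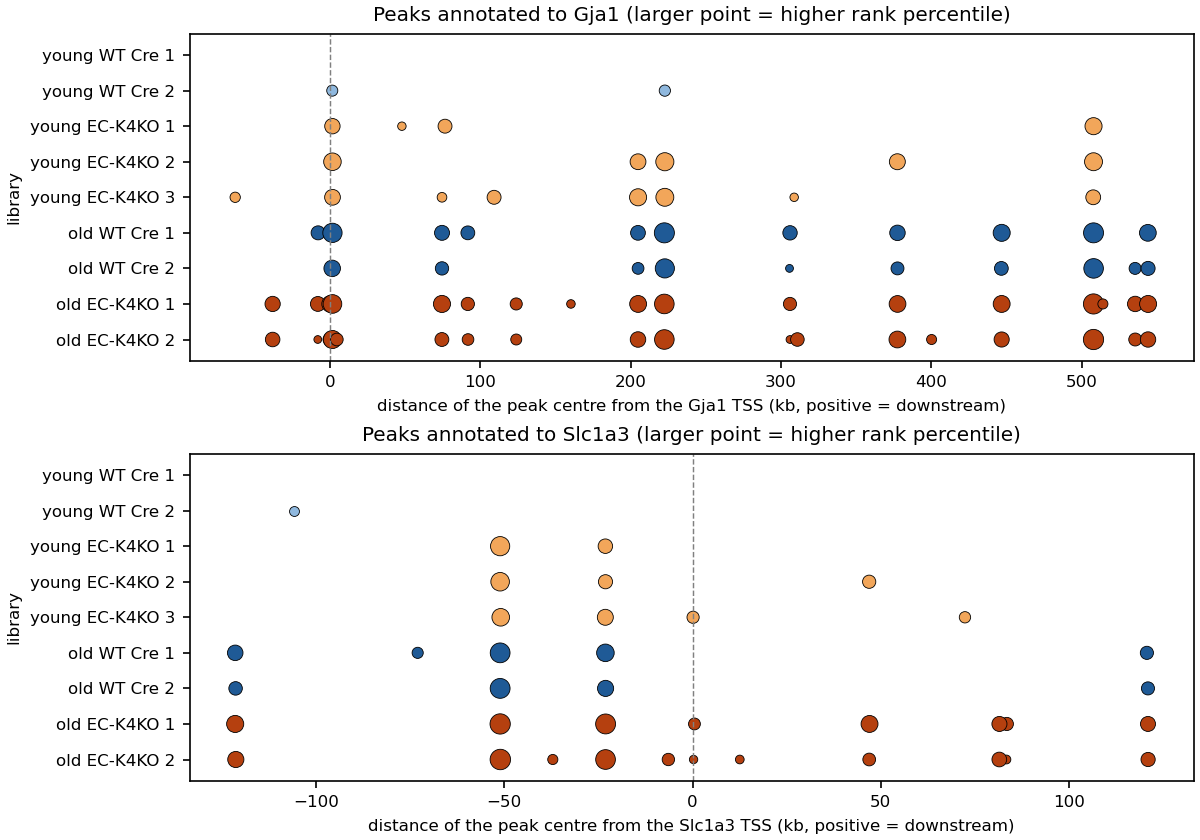
Position of each peak annotated to Gja1 (top) and Slc1a3 (bottom) as the distance in kb of its centre from the TSS, with 1 line per library, colours for the 4 groups and larger points for higher rank percentiles. Some places recur across lists, while 10 of 25 Gja1 regions and 6 of 14 Slc1a3 regions were in 1 list only. Old EC-K4KO lists hold the most peaks, with 17 and 18 for Gja1 and 8 and 11 for Slc1a3.

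Slc1a3 had 14 regions and 38 peaks. The counts were 0 and 1 in young WT Cre, 2, 3 and 4 in young EC-K4KO, 5 and 4 in old WT Cre, and 8 and 11 in old EC-K4KO, with no overlap between genotypes at either age in raw counts. Per 10000 peaks the young genotypes overlapped, with 0 and 1.04 in WT Cre and 0.839, 1.19 and 1.43 in EC-K4KO, whereas the old did not, with 1.14 and 1.23 against 1.78 and 2.81. The difference within age was 3.75 peaks (exact permutation p = 0.0333, adjusted p = 0.543), and per 10000 peaks it was 0.871 (exact permutation p = 0.05, adjusted p = 0.340). Its region 51.1 kb upstream (chr15:8761422-8762176) was absent from both young WT Cre lists and ranked at percentiles of 79.0, 73.3 and 65.2 in young EC-K4KO, 84.2 and 84.8 in old WT Cre, and 88.9 and 90.3 in old EC-K4KO. This was the highest rank of any peak of the 10 genes, and the fold reached 11.4. The difference was 38.8 points (exact permutation p = 0.0167, adjusted p = 0.556), with 0 entered for the absent young WT Cre peak. The young EC-K4KO peaks were number 5010, 6770 and 9741 in strength, and the young WT Cre lists held 6157 and 9598 peaks.

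The region 23.1 kb upstream of Slc1a3 (chr15:8733542-8734237) showed a wider gap between the old genotypes. Its percentile was 42.3, 40 and 52.8 in young EC-K4KO, 65.1 and 54.0 in old WT Cre, and 85.3 and 83.4 in old EC-K4KO, and it was absent from young WT Cre. The old genotypes differed by 24.8 points and the young by 45, and EC-K4KO ranked higher without overlap at both ages (difference within age 34.9 points, exact permutation p = 0.0167, adjusted p = 0.556). The young EC-K4KO peaks were number 13755, 15192 and 13216 in strength, past the length of both young WT Cre lists (6157 and 9598 peaks). Inside the gene, 46.9 kb from the TSS (chr15:8663569-8664038, intron), a peak was found in young EC-K4KO 2 at a percentile of 34.3 and at percentiles of 60.1 and 31.5 in both old EC-K4KO lists, and in no WT Cre list. Another region annotated to Slc1a3 121 kb downstream, present in all 4 old lists, lay closer to the TSS of Gm2310 in GENCODE.

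These 3 regions, the 508 kb region of Gja1 and the 51.1 and 23.1 kb regions of Slc1a3, were those with an unadjusted p under 0.05 among the 19 of the 10 genes found in 4 or more lists. Of all 25980 regions in 4 or more lists, 19.3% were under 0.05, and of all 92495 regions 5.41%. No region passed after adjustment (0%). With a smallest p of 0.0167, a region can pass only if a large share of all regions reach that p. Nothing is read from that 0%. The 7 of 19 that ranked higher in both old EC-K4KO lists stand beside 26% of all regions in 4 or more lists, and the 1 that ranked lower beside 8.48%. Over all 70 regions, 18 ranked higher in both old EC-K4KO lists (13.3% of all regions did) and 1 ranked lower (3.02% did), the others overlapping or being absent from the old lists.

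Presence in both old EC-K4KO lists and neither old WT Cre list was found for 9 of the 70 regions (12.9%), and for 4.76% of all regions. They were 4 regions of Slc1a3, 3 of Gja1, 1 of Slc1a2 and 1 of Fgfr3. The opposite pattern was found for 0 of the 70, and for 0.427% of all regions. Counted per gene, Gja1, Slc1a3, Slc1a2 and Fgfr3 had more peaks in both old EC-K4KO lists than in both old WT Cre lists, and 12.6% of all named genes did. None of the 10 had fewer, where the share was 3.01%. In young libraries, Gja1, Slc1a2 and Slc1a3 had more peaks in all 3 EC-K4KO lists than in both WT Cre lists, against 23.9% of named genes. Per 10000 peaks of the list, Slc1a2 alone of these 3 kept the young genotypes apart. Its count was 0 in both young WT Cre lists, so the scaling could not change that. Its 1 peak per young EC-K4KO list lay in a different region each time. With 2 against 2 libraries no two-sided exact permutation p can fall below 0.333, so these old patterns could not be tested singly. Both young WT Cre lists were shorter than every young EC-K4KO list, whereas old list lengths overlapped between genotypes.

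The other transporter and connexin had few peaks. Slc1a2 had 1 peak in each of the 3 young and 2 old EC-K4KO lists and 0 in each of the 4 WT Cre lists (difference 1 peak, exact permutation p = 0.0167, adjusted p = 0.543). Per 10000 peaks the adjusted p of the exact permutation test was 0.265. The 5 peaks fell in 3 regions. One of these, at the most upstream TSS (chr2:102658656-102659157), was in young EC-K4KO 2 at a percentile of 27.1 and in old EC-K4KO at 4.13 and 7.19. The other 2 were intronic and in 1 list each. Gjb6 had 2 peaks in all, in young EC-K4KO 2 and old EC-K4KO 1.

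Aqp4, the water channel of astrocyte endfeet, had no region shared by any pair of lists. Its 11 peaks formed 11 regions, with 0 and 1 in young WT Cre, 1, 0 and 1 in young EC-K4KO, 5 and 1 in old WT Cre, and 2 and 0 in old EC-K4KO. The highest percentile was 38.7, and the 4 regions 73.2 to 101 kb upstream, 3 of them from old WT Cre 1 and 1 from old WT Cre 2, fell in introns of Chst9. The genotype difference in its number of peaks was −0.917 (exact permutation p = 0.617, adjusted p = 1).

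Fgfr3 had 15 peaks in 6 regions. Its region 31.7 kb upstream (chr5:33689240-33690356) was the only 1 of the 70 found in all 9 lists, but in 8 of them the peak was annotated to Tacc3, whose TSS is nearer in GENCODE. Its percentile was 35.9 and 42.1 in young WT Cre, 28.7, 45.1 and 63.0 in young EC-K4KO, 78.5 and 71.7 in old WT Cre, and 65 and 50.3 in old EC-K4KO. It was the 1 recurrent region that ranked lower in both old EC-K4KO lists. A region 26.2 kb upstream was in young EC-K4KO 3, old WT Cre 2 and both old EC-K4KO lists. One 15.3 kb upstream was in the old EC-K4KO lists alone, at percentiles of 20.5 and 33.5.

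Gfap, S100b and Aldh1l1, whose promoters had no peak, each had 1 region within or near the gene that recurred in all 4 old lists. Gfap encodes the intermediate filament of astrocytes. Its coding region printed above (chr11:102892969-102893560, where Gm26668 is annotated too) was in young EC-K4KO 2 at a percentile of 58.9, in old WT Cre at 75.6 and 54.7, and in old EC-K4KO at 70.7 and 61.1. A region 3.83 kb upstream of Gfap was in old WT Cre 2 and both old EC-K4KO lists. S100b, a calcium-binding protein, had an intronic region (chr10:76257981-76258316) in the 4 old lists alone, at 49.7 and 27.5 in old WT Cre and 29.3 and 43.0 in old EC-K4KO. Aldh1l1, an enzyme of folate metabolism, had a region 35.6 kb upstream (chr6:90514997-90515446, within Gm45901) in the same 4 lists, at 45.8 and 36.4 in old WT Cre and 32.7 and 40.3 in old EC-K4KO. At all 3 places the old genotypes overlapped.

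The promoters themselves differed in base composition. RefSeq promoters of GRCm38.p6, 300 bases long and mostly upstream of the start, were matched for 9 of the 10 genes (11 entries). An observed over expected CpG ratio of at least 0.6 was reached by the 2 Fgfr3 entries alone (0.726 and 0.778), whereas 35.8% of all 32851 promoters reached it. Gja1 stood at 0.544, and the other 8 entries lay between 0.0641 and 0.338. The Gja1 entry covers the upstream TSS, which had a peak in both old EC-K4KO lists alone, and not the internal TSS. A KLF match was found in 5 of the 11 entries and in 29.2% of all promoters, an NFI match in 2 and 14.1%, a STAT match in 2 and 13.1%, an ETS match in 1 and 8.86%, an AP-1 match in 1 and 7.81%, and a SOX match in 0 and 3.66%.

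The gene outside the marker lists whose TSS percentiles over the 9 libraries lay closest to those of Gja1 was Nup155, with a mean absolute difference of 2.50 points. It was absent from the young WT Cre lists as well.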

How the data were processed

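Omni-ATAC-seq peak lists of 9 libraries were used, grouped by the labels. Per the study's methods, the authors used TrimGalore for trimming and Bowtie2 for mapping to mm10 (GRCm38), filtered on duplicates and mapping quality, and ran MACS2 in its broad mode on each library. The deposited lists give a score, a fold enrichment (a ratio to local background), and −log10 p- and q-values, ending near q = 0.1. The file headers name annotatePeaks.pl of HOMER for the deposited distance, class and gene name. The annotation gave each peak one gene by distance.

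The 10 genes, the marker lists and the motifs were chosen with earlier results of these data known. TSS came from the basic set of GENCODE M21, and a TSS peak shares at least 1 bp with a TSS. Ranks used −log10 p. Regions are peaks of any library merged on 1 shared bp. Genotype was tested as the mean over age of EC-K4KO minus WT Cre with a two-sided exact permutation test (60 arrangements), adjusted by Benjamini-Hochberg over all genes or regions. The test was tried on simulated data built from genes with a TSS peak in all 9 lists. None of the 10 genes had that, so the trial does not cover values with absent peaks. All 10 genes were named, the other lists could be, and for genes with a TSS peak in all 4 old lists the most similar gene outside the lists was, which for Fgfr3 is not reported here. The tests of peaks per gene and of regions were added after seeing the data. Python 3.11.15, numpy 2.4.6, pandas 2.3.3 and scipy 1.17.1 were used. The authors' read-count test (DiffBind with DESeq2) needs reads and was not rerun.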

Additional observations from a re-analysis of the deposited data

How the results depend on the processing

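Of 243 recomputed values, 207 were classed as kept, 33 moved and 3 reversed. A mean difference was kept if it stayed within the replicate SD. A count was kept if equal or of similar size, as with 5180 genes at q under 0.05 against 3678. A gene test was kept if its sign and side of the adjusted threshold held. No marker gene passed that threshold in any run, so gene tests were judged on sign alone. The count of genes passing the adjusted threshold was 0 in every alternative run for genotype. Without a young EC-K4KO library or with the replicate block, that 0 was fixed by the design, as no p under 0.05 was possible. For the interaction the adjusted count was 0 too, where ranks by fold, presence alone, order among genes and the replicate block were not run. The genotype count at an unadjusted p under 0.05 was 3678. It was 517 with lists cut to the shortest length, 1947 with the authors' promoter-TSS class, 2241 with ranks by fold and 20 with presence alone. Leaving out 1 library gave 0 to 5553, with 0 without any of the young EC-K4KO libraries, 1944 without young WT Cre 1, 2045 without young WT Cre 2, 5553 without old WT Cre 1, 2344 without old WT Cre 2 and 2202 without old EC-K4KO 1. Fewer libraries also leave fewer arrangements. Without any 1 of the young EC-K4KO libraries, the arrangements left allow no p under 0.05. The counts of 0 in those runs were therefore fixed by the design, for genotype and for the interaction alike. They do not show that the result depends on these libraries. The interaction count of 1239 was 544 at q under 0.05, 213 at q under 0.01, 407 in shortened lists, 677 with the authors' class and 0 to 3240 with 1 library left out.

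The mean difference in genes with a TSS peak was 1.83 for EC-K4KO minus WT Cre and 2.67 for old minus young. At q under 0.01 these were 0.917 and 2.08, in shortened lists both 0, and with 1 library left out 1.58 to 2.08 and 2.42 to 2.92. The mean difference in peaks of the 10 genes was 12.6 and 23.9. It was 0.167 and 1.33 in shortened lists, 7.25 and 7.75 when peaks were assigned by gene body and 5000 bp either side, and 11.6 to 13.6 and 22.9 to 24.9 with 1 library left out. Per 10000 peaks it was 2.46 (1.83 to 3.10) and 3.93 (3.29 to 4.56), an alternative chosen after seeing the data. The Aldoc genotype difference of −1.58 points ranged from −8.41 to 5.26 with 1 library left out, turning to 5.26 without old WT Cre 2 and 3.68 without old EC-K4KO 2. The Fgfr3 difference of 1 peak became −0.0746 per 10000 peaks.

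Replicate numbers recur across genotypes. Deviations of same-numbered libraries from their group means correlated at −0.0583 and −0.0226 in young and 0.0391 in old over 14573 genes. The labels do not say what the number stands for, and whether same-numbered libraries shared a preparation was not tested. A fit with the replicate block gave 0 genes at an unadjusted p under 0.05, as its 16 arrangements allow no p below 0.125. Depth is unknown and list length follows group, so a missing peak in a short list may lie below its threshold.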
